A study of Mus musculus with 6 samples.

Results

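Heat shock proteins and chaperones were followed here as 10 genes taken by symbol from the table of all genes: Hsf1, Hsph1, Hspa1a, Hspa1b, Hspa8, Hsp90aa1, Hsp90ab1, Dnajb1, Hspb1 and Hspd1. All 10 were found among 45777 genes, and all 10 passed the filter on low counts that left 17820 genes. Their transcripts were measured by mRNA sequencing of epididymal white fat (eWAT), a visceral fat pad beside the epididymis of the mouse, on a C57BL/6 background. Both groups had loxP-flanked alleles of the kinase gene Pak4 (Pak4 flox/flox) and both were fasted for 24 h. The 3 WT-labelled libraries came from such mice without Cre. The 3 KO-labelled libraries came from Adipoq-Cre; Pak4 flox/flox mice, in which the adiponectin promoter drives the Cre recombinase in adipocytes, so that other cells of the pad keep the floxed alleles. The labels used here state neither age nor sex, and they number the replicates without saying that each is 1 mouse, so the p-values cover the spread of these libraries only, which may be technical.

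Total counts ran from 62854465 to 72005658 per library. Pak4 itself went against the labels, with 5.03 to 5.84 CPM (counts scaled to TMM library size) in the WT-labelled libraries and 9.06 to 12.1 CPM in the KO-labelled ones, a log2 fold change of 0.96 ± 0.14 (SE; edgeR adjusted p 0.0898). These are counts over the whole gene, and which exons are floxed is not stated in the labels. Directions below therefore compare labels, not proven genotypes. On the first principal component KO 1 had a score of -1.85, between the WT-labelled libraries (-53.5 to -12.3) and the other two labelled KO (40.9 and 53.5). Whole tissue was extracted, although the cell type label reads adipocytes. All 14 mature adipocyte markers were detected, with a summed level of 64930 to 70180 CPM in the WT-labelled libraries and 61880 to 65510 CPM in the KO-labelled ones (10 of 14 below 0, median log2 fold change -0.27). Markers of other cells were present too. Macrophage markers summed to 1774 to 2192 and 1897 to 2598 CPM (11 of 11 above 0, median 0.31), mesothelial ones to 502 to 811 and 783 to 966 CPM (7 of 8 above 0, median 0.53), and those of progenitors and fibroblasts to 2391 to 2587 and 2596 to 4012 CPM (5 of 7 above 0). The part of these cell types in the chaperone values below was not tested. Epididymal and sperm markers stayed under 1 CPM in every library, with 2 of 9 at 0 counts throughout. In whole tissue, fewer cells of a type and less RNA per cell cannot be told apart.

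Chaperones bind unfolded or partly folded proteins and help them to fold, assemble or be degraded. HSP70 proteins such as Hspa8 work in an ATP cycle that J-domain proteins (Dnajb1) start and that nucleotide exchange factors (Hsph1) complete, and they hand clients on to HSP90 (Hsp90aa1, Hsp90ab1). Small heat shock proteins (Hspb1) hold unfolded proteins without ATP, and HSP60 (Hspd1) folds proteins in a closed chamber inside mitochondria with its lid Hspe1. Under heat or other proteotoxic stress, the transcription factor HSF1 forms trimers and binds heat shock elements, repeats of GAA in alternating orientation, before the inducible chaperone genes.

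Letters matching 2 neighbouring units of a heat shock element stood before several of the 10 genes, which is why these stretches are shown. RefSeq promoter windows (GRCm38.p6, the assembly of mm10) were matched for 6 of the 10 genes, namely Hsph1, Hspa1a, Hspa1b, Dnajb1, Hspb1 and Hspd1. The 250 bases before each start were searched on both strands for 2 facing units, GAANNTTC or TTCNNGAA, each of which reads the same on both strands. Of these 6 genes, 5 had a match, in 6 of 9 windows, against 12.8% of all 32851 windows of the same length. These 6 windows are not all distinct. The Hsph1 windows hold the same site seen from different starts, and Hspa1a and Hspa1b share the same matched stretch. Dnajb1 had none of these letters in its windows. Capitals below mark the matches, on the strand of the gene, 5′ to 3′.
Hspa1a: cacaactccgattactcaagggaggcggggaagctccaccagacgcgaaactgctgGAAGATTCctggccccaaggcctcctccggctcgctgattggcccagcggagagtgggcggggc
Hspb1: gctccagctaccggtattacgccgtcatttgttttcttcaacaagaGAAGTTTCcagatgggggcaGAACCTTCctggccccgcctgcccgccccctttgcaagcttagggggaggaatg
Hspd1: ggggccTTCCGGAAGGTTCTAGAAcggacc
Hsph1: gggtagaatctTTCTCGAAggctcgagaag
The Hspa1a stretch lies at chr17:34972197-34972316 on the minus strand, 160 to 41 bases before the start, and touches no annotated exon. Hspa1b has the same 120 bases at chr17:34959279-34959398, also on the minus strand, and the whole 250 bases before the starts of this gene pair differ at 3 positions. The Hspb1 stretch (chr5:135887756-135887875, plus strand) holds 2 separate matches outside annotated exons. The Hspd1 stretch (chr1:55088053-55088082, minus strand) holds 3 overlapping matches that form 4 units in a row (TTCNNGAA, GAANNTTC and TTCNNGAA, each sharing a unit with the next), a pattern found in 4 of 32851 windows (0.0122%). A run of 3 units or more, in which GAANNTTC and TTCNNGAA share a unit, stood in 0.466% of windows and, among the 6 genes, before Hspd1 alone. That stretch overlaps an annotated exon of another Hspd1 transcript and lies before the start of Hspe1, which runs the other way. The Hsph1 stretch (chr5:149636351-149636380, minus strand) has 1 match, 54 to 47 bases before one annotated start, and overlaps an annotated exon of Hsph1. A match describes the letters and is no measure of HSF1 binding.

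Hspa8, both HSP90 genes, Hspd1 and Hspb1 were abundant transcripts in the fasted fat pad. Hspa1a, an inducible HSP70 gene, had the lowest level of the 10. That rank depends on how reads shared with its near-identical copy Hspa1b were split, which is not stated. On the scale of the authors' deposited TPM, which corrects for transcript length, Hspa8 stood highest at 868 on average over the 6 libraries (738 to 967), rank 125 of the 17820 genes tested. Hsp90ab1, the constitutive cytosolic HSP90, followed at 523 TPM (480 to 563, rank 242). Next came Hspd1 at 216 TPM (201 to 236), Hsp90aa1, the inducible HSP90, at 187 TPM (173 to 206), and Hspb1 at 129 TPM (85.1 to 175). A wide step separated these 5 genes from the rest, as the lowest value of Hspb1 was above the highest value of any of the other 5 genes.

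The lower tier held the J-domain protein gene Dnajb1 at 20.2 TPM (18.7 to 21.0), the factor Hsf1 at 18.1 TPM (15.4 to 21.9) and the exchange factor Hsph1 at 12.0 TPM (8.51 to 15.9). The inducible HSP70 genes followed, Hspa1b at 10.4 TPM (6.91 to 12.4) and Hspa1a at 6.56 TPM (5.13 to 7.45, rank 9234). The order of Hsph1 and Hspa1b differed by label. Hsph1 was above Hspa1b in all 3 WT-labelled libraries (means 14.2 and 10.1 TPM) and below it in all 3 KO-labelled ones (9.73 and 10.8 TPM). The margin was small in KO 1 (9.99 and 10.2 TPM) and KO 2 (10.7 and 11.0 TPM). The order also depends on how reads were split between Hspa1a and Hspa1b. Per 100 TPM of Hspa8, that pair together was above Hsph1 in WT 1 (2.135 and 1.717) and WT 3 (1.818 and 1.319) too, and below it in WT 2 (1.332 and 1.552). Hspa8, Hsp90ab1 and Hspd1 were ordered without overlap, while from Hspd1 to Hsp90aa1 to Hspb1, and at each step from Dnajb1 down to Hspa1a, the ranges of neighbouring genes overlapped. Per 100 TPM of Hspa8, Hspa1a and Hspa1b together reached 1.76 ± 0.40 (SD, n = 3) in the WT-labelled libraries and 2.17 ± 0.03 in the KO-labelled ones.

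**Figure D1:**
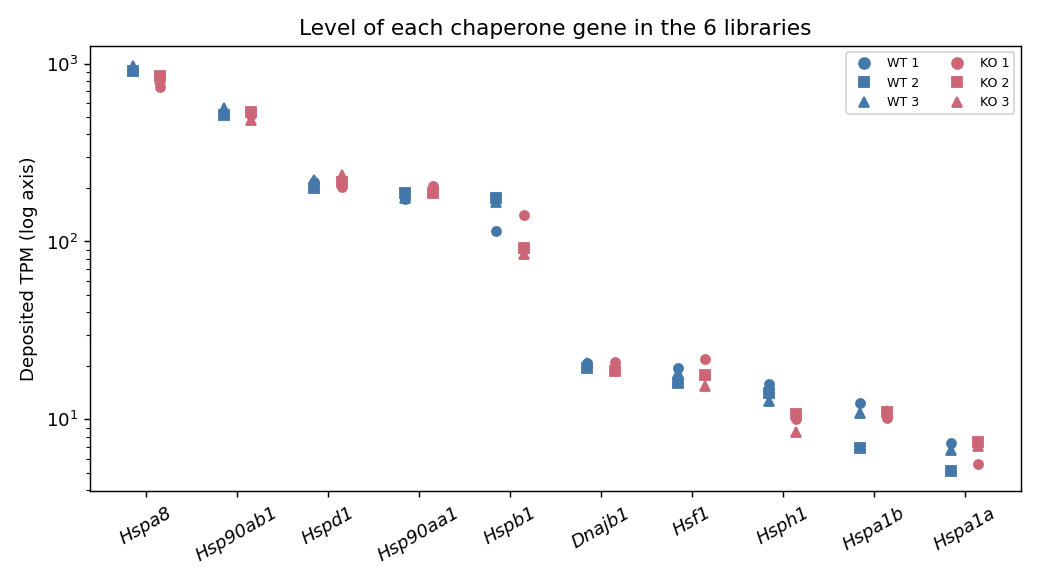
Deposited TPM (log axis) of the 10 genes in each of the 6 libraries, ordered by mean level; colour is the label and marker shape the replicate number. Hspa8 stands at 738 to 967 TPM in all 6 libraries and Hspa1a at 5.13 to 7.45, with the libraries of both labels side by side for most genes.

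None of the 10 genes passed the test between labels. The test was edgeR's quasi-likelihood test over 17820 genes adjusted by Benjamini-Hochberg, and genes under 0.05 were called. It called 0 of 10 members, against 0.0168% of all genes tested (3 genes, all lower in the KO-labelled libraries). At an unadjusted p under 0.05 there were 3 members, Hsph1, Hspa8 and Hspb1, all lower in the KO-labelled libraries, where 9.71% of all genes were. In 3 members (Hsph1, Hspa8 and Hsp90ab1) every library labelled KO was below every library labelled WT, which held for 12.5% of all genes. Of the 10 log2 fold changes, 7 were below 0, with a median of -0.08, against a median of 0.02 over all genes and 47.9% of genes below 0. DESeq2 called Hsph1 and Hspa8, both lower, against 3.86% of all genes called lower, and limma voom called 0 members. Fold changes below are on the log2 scale, KO label over WT label, ± SE.

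**Figure D2:**
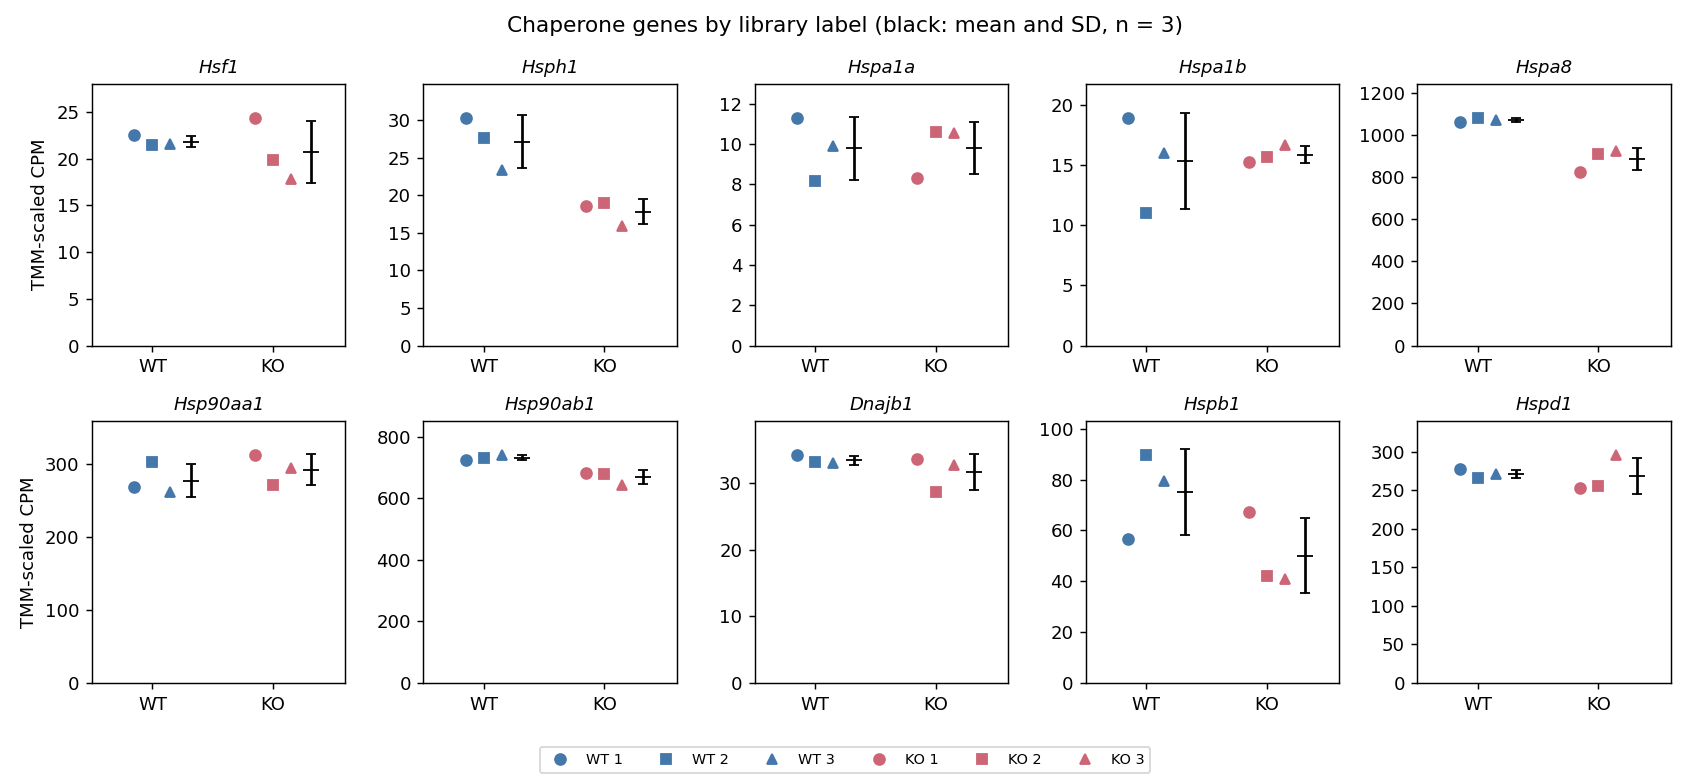
TMM-scaled CPM of the 10 genes (vertical axes from 0) by label, one marker per library, with mean and SD (n = 3) in black. In Hsph1, Hspa8 and Hsp90ab1 the KO-labelled libraries lie below all the WT-labelled ones, and in the other 7 genes the labels overlap.

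Hsf1, the heat shock factor, did not separate the labels. It had 22.5, 21.5 and 21.6 CPM in the WT-labelled libraries and 24.4, 19.9 and 17.9 CPM in the KO-labelled ones. The highest and the lowest value both belonged to libraries labelled KO. The log2 fold change was -0.08 ± 0.12 (95% interval -0.37 to 0.21; edgeR adjusted p 0.758). Hsf1 is a protein-coding gene on chromosome 15 at 76477362 to 76501155. Among the 4 other tested genes of the HSF family and its regulators, the log2 fold changes were 0.41 ± 0.17 for Hsf4, 0.23 ± 0.12 for Hsf2, -0.16 ± 0.09 for the HSF-binding protein gene Hsbp1 and -0.37 ± 0.10 for Hikeshi. Hikeshi, which carries HSP70 into the nucleus under heat, had 18.2 ± 0.43 and 14.1 ± 1.40 CPM, with no overlap. It did not pass in edgeR (adjusted p 0.162) and passed in DESeq2 (0.0466).

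Hsph1, which encodes the HSP110 exchange factor of HSP70, had the smallest p of the 10 genes. It had 30.3, 27.7 and 23.4 CPM in the WT-labelled libraries and 18.6, 18.9 and 15.9 CPM in the KO-labelled ones. All 3 libraries labelled KO were below all 3 labelled WT, KO 1 included. The means were 27.1 ± 3.51 and 17.8 ± 1.66 CPM (SD, n = 3), 34.3% lower in the KO-labelled libraries. The log2 fold change was -0.61 ± 0.12 (95% interval -0.89 to -0.32), with an edgeR adjusted p of 0.125, short of the threshold. DESeq2 gave an adjusted p of 0.0029, and over 15 alternatives the value ran from 0.0029 to 0.409. Without KO 1 the fold change was -0.64 ± 0.14 (adjusted p 0.0519 in edgeR). Hsph1 lies on chromosome 5 at 149616843 to 149636498, and no other transcript in the annotation was at least 95% identical to it over 400 bases.

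Profiles over the 6 libraries were compared with Hsph1 for 12907 tested genes with a mean of at least 1 CPM. Symbols of predicted genes (Gm or Rik) were left out. The nearest were Lgals3bp, Angel1, Slc8b1, Masp1 and Lrrc39. Their root mean square distance from Hsph1 on centred log2 CPM was 0.07 to 0.09. None of the 5 is a chaperone gene. The nearest of the 10 members was Hspa8, at a distance of 0.23 and rank 956, and the farthest was Hspa1b, at 0.43 and rank 8700.

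Hspa8, the constitutive HSP70 and the most abundant of the 10, was tightly grouped within the WT label. It had 1063, 1081 and 1069 CPM in the WT-labelled libraries and 825, 908 and 925 CPM in the KO-labelled ones. The labels did not overlap, and KO 1 was the lowest library. The log2 fold change was -0.27 ± 0.11 (95% interval -0.54 to -0.01; edgeR adjusted p 0.246, 0.0348 in DESeq2). Hspa8 lies on chromosome 9 at 40801276 to 40805202. The annotation holds 6 other genes at least 95% identical to it over 400 bases, among them Gm15459 at 99.7% over 1941 bases. The 5 of them in the table had 59610 counts in all, 15.3% of the count of Hspa8. The handling of reads that match several copies is not stated, so how far the Hspa8 count is uncertain is not known. With the counts of these 5 genes added to Hspa8 the fold change was -0.27 ± 0.12.

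The inducible pair Hspa1a and Hspa1b did not separate the labels. Hspa1a had 11.3, 8.16 and 9.88 CPM in the WT-labelled libraries and 8.32, 10.6 and 10.6 CPM in the KO-labelled ones. Hspa1b had 19.0, 11.0 and 16.0 CPM in the WT-labelled libraries and 15.3, 15.7 and 16.7 CPM in the KO-labelled ones. In both genes WT 1 was the highest library and WT 2 the lowest, with all libraries labelled KO between them. The log2 fold changes were 0.01 ± 0.16 for Hspa1a and 0.05 ± 0.19 for Hspa1b. Their 95% intervals were -0.36 to 0.37 and -0.38 to 0.48 (edgeR adjusted p 0.986 and 0.903).

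These 2 genes are near-identical copies on chromosome 17 (34969359 to 34972156 and 34956429 to 34959238), with 99.2% identity over 2201 transcript bases. Their split is uncertain, because the handling of reads that match both is not stated. Added up as 1 gene they had a log2 fold change of 0.03 ± 0.16. The annotation also has a gene, Gm20481, on the opposite strand over 2225 bases of Hspa1a, and whether the counting used strand is not given. The count of each gene was at least 547 in every library.

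Dnajb1, the J-domain partner of HSP70 that is induced by heat, had close values in 5 of the 6 libraries. It had 34.2, 33.1 and 33.0 CPM in the WT-labelled libraries and 33.6, 28.6 and 32.8 CPM in the KO-labelled ones. KO 2 was the lowest library, and the other 5 lay between 32.8 and 34.2 CPM. The log2 fold change was -0.08 ± 0.09 (95% interval -0.29 to 0.13; edgeR adjusted p 0.652). Dnajb1 lies on chromosome 8 at 83608175 to 83612653.

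The HSP90 genes lay on opposite sides of 0, each by a small amount. Hsp90ab1, on chromosome 17 at 45567778 to 45573261, had 726, 733 and 741 CPM in the WT-labelled libraries and 683, 681 and 643 CPM in the KO-labelled ones. These groups did not overlap. Its log2 fold change of -0.13 ± 0.11 (95% interval -0.38 to 0.11) did not pass (edgeR adjusted p 0.503). Hsp90aa1, on chromosome 12 at 110691036 to 110696395, had 269, 303 and 262 CPM in the WT-labelled libraries and 312, 271 and 295 CPM in the KO-labelled ones. The labels overlapped, with WT 2 above KO 2 and KO 3, and the log2 fold change was 0.08 ± 0.11 (95% interval -0.18 to 0.33; adjusted p 0.728 in edgeR). The annotation holds 3 copies at least 95% identical to Hsp90aa1, of which the 2 in the table had 12.0% of its count.

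A ratio of 2 genes within a library does not depend on how libraries are scaled. Per 100 TPM of Hsp90ab1, Hsp90aa1 had 32.5, 36.3 and 31.0 in the WT-labelled libraries and 40.3, 35.0 and 40.3 in the KO-labelled ones. KO 1 and KO 3 were above all libraries labelled WT, and KO 2 was below WT 2. The means were 33.3 ± 2.72 and 38.5 ± 3.04 (two-sided exact permutation test, p = 0.2, and 0.3 adjusted over the 6 ratios computed). Hsph1 per 100 TPM of Hspa8 was 1.53 ± 0.20 and 1.21 ± 0.16 (exact permutation p = 0.2), with KO 1 above WT 3. Hspa1a and Hspa1b together per 100 TPM of Hspa8 were higher in every library labelled KO (2.14, 2.17 and 2.21) than in any labelled WT (2.13, 1.33 and 1.82), though KO 1 and WT 1 differed only in the third digit. That exact permutation p of 0.1 is the smallest that 3 libraries against 3 can give, and it was 0.3 adjusted over the 6 ratios.

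Hspd1, the mitochondrial HSP60, had the smallest distance from 0 but for Hspa1a. It had 277, 267 and 271 CPM in the WT-labelled libraries and 254, 256 and 296 CPM in the KO-labelled ones. KO 3 was the highest library and KO 1 the lowest. The log2 fold change was -0.02 ± 0.10 (95% interval -0.26 to 0.22; edgeR adjusted p 0.941). Hspd1 lies on chromosome 1 at 55077833 to 55088243 and overlaps its neighbour Hspe1 by 112 bases at their starts. Hspe1, the HSP10 lid, stood at -0.02 ± 0.09, and the TPM of Hspd1 per 100 TPM of Hspe1 was 162 ± 6.93 and 162 ± 2.60. This ratio ran from 154 to 168 in all 6 libraries.

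**Figure D3:**
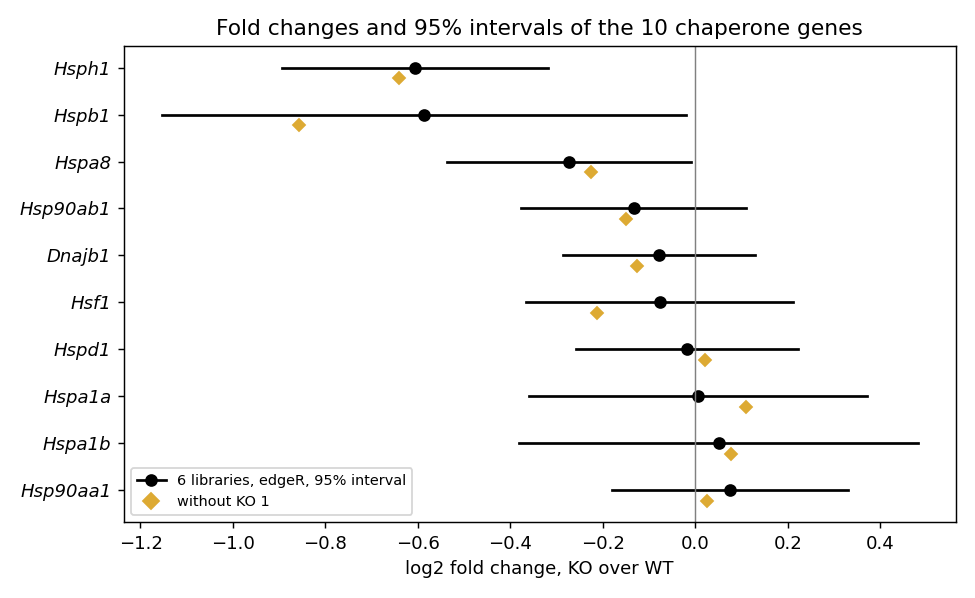
Log2 fold change (libraries labelled KO over WT) of the 10 genes from edgeR, with 95% intervals as black lines, and the value without KO 1 as diamonds. Hsph1, Hspb1 and Hspa8 have intervals below 0 before adjustment, and without KO 1 the value of Hspb1 moves from -0.59 to -0.86.

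Hspb1, the small heat shock protein HSP27 (HSP25 in mice), had the widest range over the 6 libraries of the 10 genes, its highest value being 2.18 times its lowest. Within the WT label Hspa1b varied more, with a coefficient of variation of 26.1% against 22.5% for Hspb1. It had 56.6, 89.7 and 79.3 CPM in the WT-labelled libraries and 67.2, 42.0 and 41.1 CPM in the KO-labelled ones. The labels overlapped, with KO 1 above WT 1. The means were 75.2 ± 16.9 and 50.1 ± 14.8 CPM (SD, n = 3), and the log2 fold change was -0.59 ± 0.24 (95% interval -1.15 to -0.02; edgeR adjusted p 0.247). Without KO 1 it was -0.86 ± 0.19 (adjusted p 0.0529 in edgeR), and with other libraries left out it was as small as -0.44. Hspb1 lies on chromosome 5 at 135887919 to 135889563. The pseudogene Hsp25-ps1, 1 of 2 genes at least 95% identical to it over 400 bases and the one in the table, had 7.46% of its count.

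Of the 5 other small heat shock protein genes tested, 4 had lower log2 fold changes than any of the 10 genes. They were Hspb2, Cryab, Hspb6 and Hspb7, and Hspb8 was not among them. Of 9 genes of this family 6 were tested, Hspb1 among them. None passed, 5 were below 0, and the median was -1.06, against 0.02 over all genes. Hspb6, a small heat shock protein of muscle, had 43.1, 67.9 and 59.0 CPM in the WT-labelled libraries and 32.9, 21.8 and 18.8 CPM in the KO-labelled ones (-1.21 ± 0.25; adjusted p 0.131 in edgeR, 1.9e-04 in DESeq2). Cryab, the alpha B crystallin, had 117, 209 and 125 CPM and 107, 70.7 and 46.0 CPM (-1.01 ± 0.35; adjusted p 0.206 in edgeR, 0.0262 in DESeq2). Both genes had no overlap between labels. Hspb2, which lies next to Cryab, stood at -1.10 ± 0.35 (adjusted p 0.184 in edgeR, 0.0411 in DESeq2). Hspb7 stood at -1.22 ± 0.83, with 28.3, 136 and 54.5 CPM against 64.5, 16.3 and 13.2 CPM. Hspb8, the partner of the co-chaperone Bag3, was the one above 0, at 0.10 ± 0.20. Hspb3, Hspb9 and Cryaa were too low to be tested.

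Muscle actins also varied widely within a label. Acta2, the smooth muscle actin, had 138, 1393 and 411 CPM in the WT-labelled libraries and 302, 46.1 and 47.6 CPM in the KO-labelled ones. Acta1, the skeletal muscle actin, had 79.6, 582 and 257 CPM and 151, 7.81 and 13.9 CPM. In Acta2, Acta1 and Hspb1, WT 2 was highest, followed by WT 3, KO 1 and WT 1, and KO 2 and KO 3 were lowest. This order was not particular to muscle genes. Lep, an adipocyte marker, had it too (860, 2225 and 1064 CPM under the WT label, 1036, 410 and 441 CPM under the KO label). Serpinh1, the collagen chaperone, had it as well (377, 544 and 406 CPM, then 383, 269 and 213 CPM). All 8 smooth muscle and pericyte markers together ran from 386 to 1772 CPM in the WT-labelled libraries and from 261 to 525 CPM in the KO-labelled ones, with 6 of 8 below 0 and a median of -0.45. The other markers of that list did not follow the library order of Acta2. Rgs5 (-0.77 ± 0.14), Mylk (-0.97 ± 0.22) and Notch3 (-0.69 ± 0.15) were lower in the KO-labelled libraries with no overlap. Their adjusted p was 0.119, 0.1437 and 0.1355 in edgeR, and 2.1e-04, 0.0016 and 0.0053 in DESeq2. Tagln stood at 0.36 ± 0.27 and Myh11 at 0.23 ± 0.29. The 8 skeletal muscle markers summed to 104 to 605 CPM and 30.5 to 172 CPM, and 5 of them stayed under 1 CPM in every library. Acta1 made up most of that sum in all libraries but KO 2 and KO 3. Of the 5 markers tested 3 were above 0, with a median of 0.38, the value of Mylpf (0.38 ± 0.43). Mylpf and Tnnt3 (0.46 ± 0.66) were among those under 1 CPM in every library, so both were near the floor. Actn3 stood at 1.19 ± 0.28 with no overlap (adjusted p 0.144 in edgeR, 0.0038 in DESeq2) and Myl1 at -0.37 ± 0.13. The part of muscle cells in the small heat shock protein values was not tested.

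**Figure D4:**
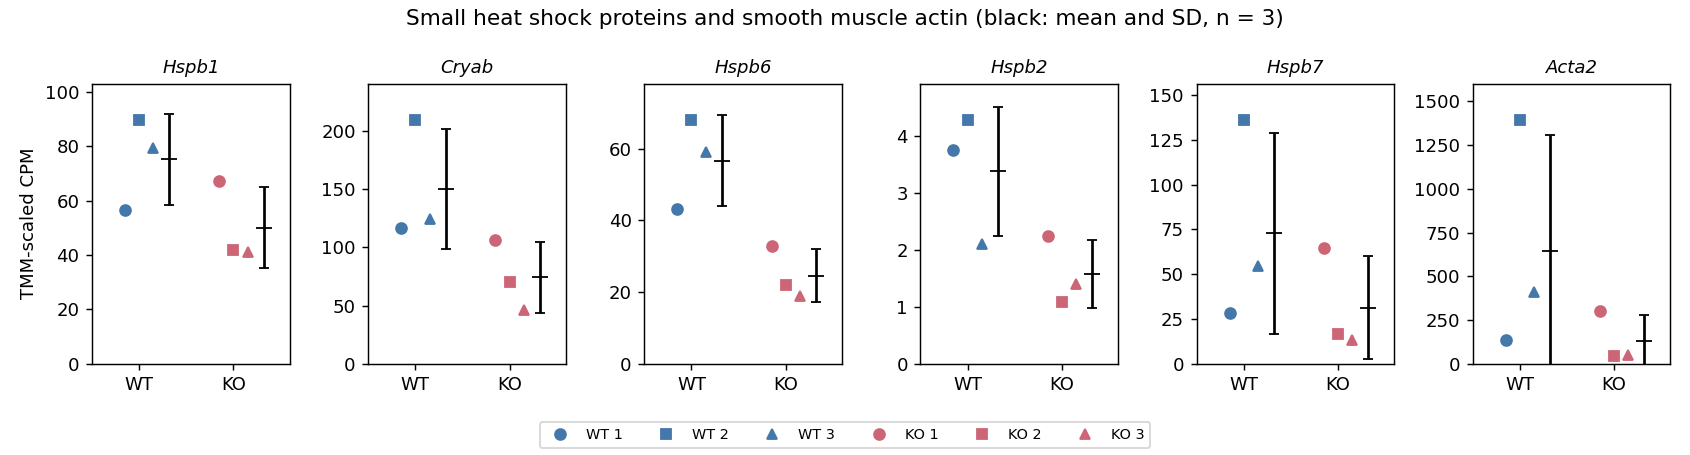
TMM-scaled CPM (axes from 0) of Hspb1, Cryab, Hspb6, Hspb2, Hspb7 and Acta2, one marker per library, with mean and SD (n = 3) in black; both SD bars of Acta2 are cut at 0. WT 2 is the highest library in all 6 panels, and KO 2 and KO 3 are the lowest 2.

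Beyond these genes, the wider chaperone network had no gene past the threshold. Of 126 other chaperone, co-chaperone and HSF1-related genes, 121 were tested and 0 passed in edgeR. At an unadjusted p under 0.05, 15 were lower and 4 higher in the KO-labelled libraries, where 9.71% and 9.66% of all genes were. In 24 every library labelled KO was below every library labelled WT and in 8 above, against 12.5% and 13.7% of all genes, and the median log2 fold change was -0.07. DESeq2 called 5 of the 121 genes, all lower (Cryab, Hikeshi, Hspa12b, Hspb2 and Hspb6), against 3.86% of all genes called lower. Without KO 1, edgeR called 5 as well, all lower (Bag3, Hspa12a, Hspa12b, Hspb6 and Hyou1), against 3.49% of all genes called lower in that fit.

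The HSP110 and HSP70 family was the one other family whose median lay below -0.2. All 15 genes were tested, 11 were below 0 and 0 passed, with a median of -0.25. Hspa4l, an HSP110 relative of Hsph1, had 39.5 ± 11.5 and 25.9 ± 2.64 CPM (-0.61 ± 0.20). Hspa12b, a divergent HSP70 known from endothelium, had 26.8 ± 2.36 and 17.2 ± 3.23 CPM (-0.64 ± 0.15), and its relative Hspa12a stood at -0.50 ± 0.19. In the same libraries the 10 endothelial markers summed to 263 to 342 CPM under the WT label and 210 to 239 CPM under the KO label, with 9 of 10 below 0, and their part in the Hspa12b value was not tested. Hspa1l, an HSP70 gene next to Hspa1a that is known from testis, stayed under 1 CPM (-0.81 ± 0.37). Hspa5, the HSP70 of the endoplasmic reticulum, stood at -0.25 ± 0.12 and Hspa9, that of mitochondria, at 0.08 ± 0.12.

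J-domain proteins, co-chaperones and chaperonins had medians between -0.12 and -0.01, against 0.02 over all genes. Among 41 tested J-domain genes the median was -0.07. At an unadjusted p under 0.05, 0 were higher and 2 lower, against 9.66% and 9.71% of all genes. The 2 were Dnajb11 (-0.33 ± 0.10) of the endoplasmic reticulum and Dnajc16 (-0.28 ± 0.11). Among 27 co-chaperones of HSP70 and HSP90 the median was -0.12, with 21 of 27 below 0. St13, which binds HSP70, had 331 ± 38.6 and 257 ± 33.5 CPM (-0.37 ± 0.14), Bag2 stood at -0.60 ± 0.20, Bag5 at 0.22 ± 0.08 and Ttc4 at 0.34 ± 0.11. The 14 subunits of the cytosolic chaperonin TRiC and of prefoldin had a median of -0.01, with Cct5 at 0.20 ± 0.10 and Pfdn1 at -0.27 ± 0.09. The 4 HSP90 genes had a median of -0.01, with Hsp90b1 of the endoplasmic reticulum at -0.02 ± 0.11 and Trap1 of mitochondria at -0.01 ± 0.09. The 16 mitochondrial chaperones and proteases also had a median of -0.01, with 9 below 0 and 7 above. Clpp stood at 0.30 ± 0.11 and Lonp1, both protease genes, at -0.30 ± 0.10. Spg7 (-0.42 ± 0.18) and Clpb (-0.20 ± 0.09) were lower too. None of the genes named here passed in edgeR.

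**Figure D5:**
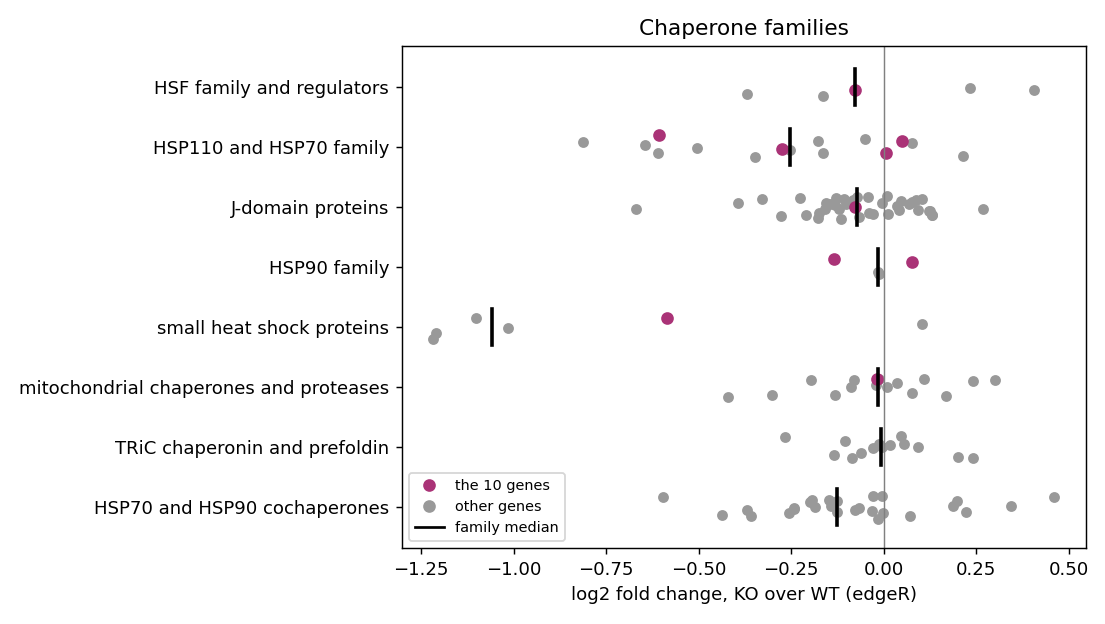
Log2 fold change (libraries labelled KO over WT, edgeR) of the tested genes of 8 chaperone families, one point per gene, the 10 genes in purple and family medians as black bars. Small heat shock proteins have a median of -1.06 and the HSP110 and HSP70 family one of -0.25, and the other 6 medians lie between -0.12 and -0.01.

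The other genes known to respond to HSF1 had a median of -0.07 over 20 tested genes, with 15 below 0, and none passed. At an unadjusted p under 0.05, 4 were lower and 0 higher in the KO-labelled libraries, where 9.71% and 9.66% of all genes were. They were Cryab, Hspa4l, Serpinh1, the collagen chaperone (-0.62 ± 0.24), and Zfand2a (-0.30 ± 0.11). Bag3, an HSF1-responsive co-chaperone, had 67.3, 70.1 and 64.5 CPM in the WT-labelled libraries and 69.4, 47.6 and 40.5 CPM in the KO-labelled ones. KO 1 lay with the WT-labelled libraries, and Bag3 stood at -0.36 ± 0.19 with it.

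Scaling moved these medians. With library size alone in place of TMM the median of all genes moved from 0.02 to 0.13 and that of the 10 genes from -0.08 to 0.04. The medians of the HSF family (0.04), J-domain proteins (0.04), HSP90 family (0.11), mitochondrial chaperones (0.10), TRiC and prefoldin (0.11) and other HSF1-responsive genes (0.05) then lay above 0. All of these medians were below the 0.13 of all genes. Those of the HSP110 and HSP70 family (-0.13), small heat shock proteins (-0.94) and co-chaperones (-0.01) stayed below 0.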

How the data were processed

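Whole epididymal fat was extracted with Trizol and sequenced with a stranded mRNA kit, per the labels' protocols. Tools listed in the submitters' processing notes, without role or order, were HISAT2 2.1.0, StringTie 2.1.3b, Bowtie2 2.3.4.1, bcl2fastq 2.20.0 and FastQC 0.11.7, with the build mm10. The authors' deposited table gives raw counts of reads for each gene, per the file headers. The deposited TPM are the authors' values per transcript length and library, used for levels and ratios, and the deposited FPKM were not used. Libraries were grouped by title.

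Low genes were removed by filterByExpr (count 10, total 15), and the rest scaled by TMM and fitted on the label in edgeR 4.0.16 (R 4.3.3, robust quasi-likelihood, two-sided, Benjamini-Hochberg, threshold 0.05). The SE is the fold change divided by the root of the test's F. DESeq2 1.42.0 and limma 3.58.1 (voom) were alternatives, beside scaling, filters, left-out libraries, the replicate block and added-up copies. The fits were tested on simulated data. Same-numbered libraries did not deviate together (correlations -0.17, -0.02 and 0.05). Centred log2 CPM used a prior count of 2.

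Named genes were Pak4, the 10 members, up to 4 genes per list with the smallest p and the 5 nearest profiles to Hsph1. Other genes (Hspa5, Hspa9, Hspe1, Hspb8, Hspa4, Fkbp5, Bag3, Hyou1, Tagln, Myh11, Tnnt3, Lep) were named after their values were seen. The members and lists were chosen with earlier results of these data known. Coordinates are those of RefSeq genes on GRCm38.p6, matched by gene ID. Copies were found by blastn among GENCODE M21 transcripts.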

Additional observations from a re-analysis of the deposited data

How the results depend on the processing

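The count of members called was 0 in edgeR under every alternative run and 2 with DESeq2 (Hsph1 and Hspa8). Over all genes, 3 were called, against 1152 with DESeq2, 5 with limma voom, and 1 to 1016 when 1 library was left out (1016 without KO 1, 5 without WT 1, 2 without KO 2, and 1 without WT 2, WT 3 or KO 3). Of the other chaperone genes 0 were called, against 5 with DESeq2 and 0 to 5 when 1 library was left out (5 without KO 1). With the replicate number as a block, 1 gene and 0 members were called, and the numbers are not known to pair mice.

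Hsph1, Hspa8, Hspb1, Hsp90ab1 and Hsp90aa1 kept their direction in all 15 alternatives. Hsf1, Hspa1a, Hspa1b, Dnajb1 and Hspd1 did not. With library size alone Hsf1 stood at 0.038, Dnajb1 at 0.039 and Hspd1 at 0.10, where the median of all genes was 0.13. Hspa1a stood at -0.0036 with RLE scaling and -0.0034 with DESeq2. With 1 library left out Hspa1a ran from -0.11 (without WT 2) to 0.12, Hspa1b from -0.14 (without WT 2) to 0.23, Hspd1 from -0.093 to 0.021 (without KO 1), with 0.014 (without KO 2), and Hsf1 from -0.21 to 0.019 (without KO 3). Adding near-identical copies to Hspa8, Hsp90aa1, Hspb1 and Hspd1, an alternative chosen after seeing the data, changed no call. Hspb1 had the widest 95% interval (-1.15 to -0.02), and every member had at least 547 counts in each library.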

Other observations

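Immediate early genes, which respond within minutes to handling, hormones and stress, did not separate the labels as a list. All 18 were tested and 0 passed in edgeR, with 9 above 0 and 9 below and a median log2 fold change of -0.01. At an unadjusted p under 0.05, 1 was lower and 1 higher in the KO-labelled libraries, where 9.71% and 9.66% of all genes were. Fosb had less (4.20 ± 0.70 and 2.61 ± 0.51 CPM, -0.69 ± 0.21) and Ier3 more (5.27 ± 1.14 and 7.80 ± 0.44 CPM, 0.57 ± 0.17). DESeq2 called Fosb alone of the 18 (adjusted p 0.0466), against 3.86% of all genes called lower. Summed over the list, the WT-labelled libraries held 389 to 542 CPM and the KO-labelled ones 462 to 508 CPM.

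Fkbp5, a co-chaperone of HSP90 that glucocorticoids induce, split within the KO label: it had 97.3, 94.6 and 86.0 CPM in the WT-labelled libraries and 53.7, 51.3 and 100 CPM in the KO-labelled ones. KO 1 and KO 2 were the lowest libraries and KO 3 the highest. Hsph1 and its HSP110 relative Hspa4l had no overlap between labels, and Hspa4, the third cytosolic gene of that branch, did overlap (-0.16 ± 0.10).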
